A study of Danio rerio with 16 samples.

Results

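Sox17, Sox32 and the Foxa proteins are transcription factors at the start of the endoderm, the germ layer that forms the gut and its organs. The genes asked for were sox17, sox32, foxa1, foxa2 and foxa3, and each was looked for by its zebrafish Ensembl identifier in all 16 deposited expression files. Only foxa2 (ENSDARG00000003411) and foxa3 (ENSDARG00000012788) were found, so 2 of the 5 genes, among 27257 identifiers in the series, have values here. Both were listed in every library at bud and at 6-somites. The current identifiers of sox17 (ENSDARG00000101717), sox32 (ENSDARG00000100591) and foxa1 (ENSDARG00000102138) were listed at neither stage, and these 3 genes are not analysed here. The values are on the older build Zv9, and older identifiers of these genes may be among those listed. No source used here pairs old and current identifiers. Whether the 3 genes were measured or expressed therefore cannot be told. The label of endoderm regulators therefore rests on a pair of genes that are also transcribed outside the endoderm.

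In zebrafish, Nodal signalling in the cells next to the yolk switches on sox32 with the help of Gata5 and the Mixl1-type homeodomain factors, and Sox32 then switches on sox17. Foxa2 and Foxa3 belong to the forkhead family, whose members bind DNA in closed chromatin and prepare gut genes for activity. Besides endoderm, foxa2 marks the axial mesoderm and the floor plate of the neural tube, and foxa3 marks the prechordal plate from which the hatching gland arises. Gata5 and Gata6 are zinc finger factors needed for heart and endoderm formation.

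Polyadenylated RNA was sequenced from whole zebrafish embryos, pooled 40 to a library, at bud (the end of gastrulation) and at 6-somites (early segmentation). At each stage there were WT embryos, Gata5 morphants, Gata6 morphants and Gata5/6 morphants, with 2 libraries for each of the 8 groups. Morphants carry an injected morpholino, a synthetic antisense molecule against the named transcript, so these are knockdowns in embryos with intact genes. Morpholino sequences and doses, clutches, strain and the treatment of the WT embryos are not given in the labels. The title of the study asks how Tmem88a acts in the GATA-dependent specification of cardiomyocyte progenitors through canonical WNT signalling. Because whole embryos were pooled, fewer cells of a type and less RNA per cell cannot be told apart.

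Library depth was 19.7 to 30.8 M reads. Replicates were less alike at bud, with an SD over genes of the log2 difference within a group of 0.341 to 0.475, than at 6-somites, with 0.183 to 0.228. gata5, the gene the labels name, averaged 49.6 RPKM in WT, 109.8 in Gata5 and 159.5 in Gata5/6 morphants at bud. At 6-somites its means were 29.6, 94.0 and 123.4 RPKM in the same order. Gata6 morphants had 58.8 RPKM at bud and 45.1 at 6-somites, above both WT libraries at each stage but not called. gata5 RNA was thus highest in the groups labelled with the Gata5 morpholino, and Gata5 protein was not measured. mdm2, a target of p53, had 3.32 and 2.41 RPKM in the WT bud libraries and 2.72 and 3.57 in Gata5 morphants at bud. In Gata6 morphants at bud it had 16.1 and 5.18 RPKM, and in Gata5/6 morphants 8.31 and 3.23. At 6-somites it had 3.62 and 3.37 RPKM in WT and 5.43 to 9.05 in the 6 morphant libraries, all above WT.

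foxa2 was well above the middle of the transcriptome in WT embryos, and fell between the stages. Its level in RPKM (reads scaled to gene length and to library size) was 24.1 and 36.2 in the WT bud libraries and 15.9 and 15.8 in the WT 6-somites libraries. These means exceeded the WT means of 87.0% of the tested genes at bud and of 77.0% at 6-somites. Gata5 morphants had 29.0 and 23.0 RPKM at bud and 12.8 and 13.1 RPKM at 6-somites. Gata6 morphants had 21.3 and 22.2 RPKM at bud and 15.5 and 15.7 RPKM at 6-somites. Gata5/6 morphants had 32.4 and 28.9 RPKM at bud and 16.5 and 17.2 RPKM at 6-somites. The WT bud libraries thus bracketed the libraries of Gata5/6 morphants and 1 of the Gata5 morphant libraries, while both Gata6 morphant libraries lay below them. At 6-somites both Gata5 morphant libraries were the lowest of the stage.

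foxa3 was nearly as abundant as foxa2 and followed the same course in time. It measured 20.3 and 30.7 RPKM in WT at bud and 12.4 and 13.0 RPKM in WT at 6-somites, above 84.6% and 72.2% of the tested genes. Gata5 morphants had 27.4 and 24.7 RPKM at bud and 13.2 and 12.1 RPKM at 6-somites. Gata6 morphants had 24.4 and 14.5 RPKM at bud and 16.1 and 16.5 RPKM at 6-somites. Gata5/6 morphants had 37.1 and 30.7 RPKM at bud and 18.1 and 17.0 RPKM at 6-somites. At bud every morphant group had at least 1 library within the WT range. At 6-somites the 4 libraries of Gata6 and Gata5/6 morphants lay above all WT and Gata5 morphant libraries. Such an order was not counted over all genes. Each foxa2 value rests on 543 to 1741 reads and each foxa3 value on 778 to 2303 reads. The part of counting in the spread between libraries was not tested. How reads that match more than 1 foxa gene were counted is not given, so sharing of reads between these relatives was not tested.

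**Figure D1:**
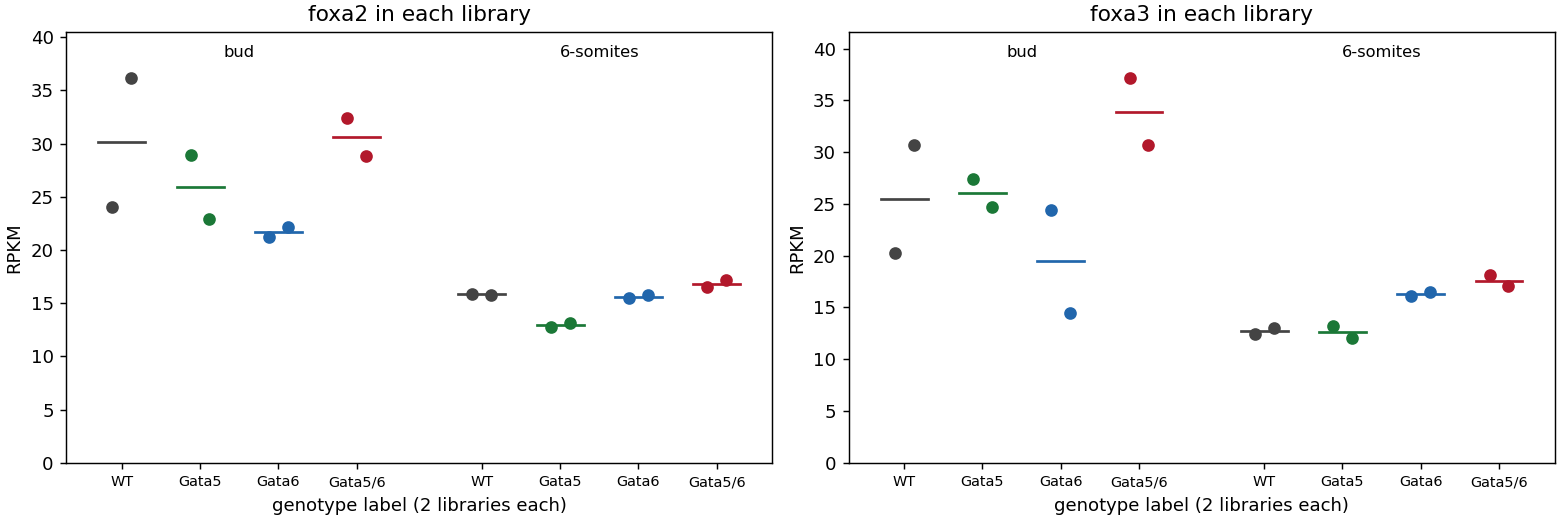
Level of foxa2 (left) and foxa3 (right) in RPKM, with each of the 16 libraries as a point and the mean of the 2 libraries of a group as a line, at bud and at 6-somites. WT foxa2 averaged 30.1 RPKM at bud and 15.9 at 6-somites, and WT foxa3 averaged 25.5 and 12.7.

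Neither gene differed from WT in any morphant group when all 16 libraries were fitted together with limma on log2(RPKM + 1) and Benjamini-Hochberg adjustment over all tested genes (threshold 0.05). The share of all tested genes called at bud was 0.359% in Gata5, 1.63% in Gata6 and 1.59% in Gata5/6 morphants. At 6-somites it was 0.474%, 0.339% and 3.8% in the same order. Of the pair, 0 of 2 genes were called in each of these 6 comparisons, by limma on RPKM and by limma-voom on recovered reads. At an unadjusted p under 0.05, 1 of 2 (foxa2) passed in Gata6 morphants at bud, beside 2858 of 14754 genes, and 0 of 2 passed elsewhere. The counts over all genes were 1578 and 2148 in Gata5 and Gata5/6 morphants at bud. At 6-somites 1640, 1340 and 2588 of 14755 genes passed in Gata5, Gata6 and Gata5/6 morphants.

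At bud, foxa2 averaged 21.7 ± 0.67 RPKM (SD, n = 2) in Gata6 morphants and 30.1 ± 8.56 in WT. The log2 change was -0.43 ± 0.16 (SE; 95% interval -0.78 to -0.074; adjusted p = 0.18). Without WT bud replicate 1 it was -0.71 (adjusted p = 0.035, or 0.48 with the bud libraries fitted alone), and without WT bud replicate 2 it was -0.14 (adjusted p = 0.75). The changes of foxa2 at bud were smaller in Gata5 morphants, at -0.19 ± 0.16 (adjusted p = 0.76), and in Gata5/6 morphants, at 0.048 ± 0.16 (adjusted p = 0.95). Both turned sign when a single library was left out. These were WT replicate 2 for Gata5 morphants, and WT replicate 1 or Gata5/6 morphant replicate 1 for Gata5/6 morphants.

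foxa3 at bud pointed in opposite directions in Gata6 and Gata5/6 morphants, within wide errors. Its mean was 19.5 ± 7.03 RPKM in Gata6 morphants and 33.9 ± 4.57 in Gata5/6 morphants, against 25.5 ± 7.36 in WT. The log2 changes were -0.39 ± 0.22 (95% interval -0.87 to 0.091; adjusted p = 0.36) and 0.42 ± 0.22 (95% interval -0.059 to 0.90; adjusted p = 0.42). The Gata5/6 morphant change was 0.13 without WT replicate 1 and 0.71 without WT replicate 2, and was called in neither case. In Gata5 morphants the change was 0.058 ± 0.22 (adjusted p = 0.96), and it turned negative without WT replicate 1 or without Gata5 morphant replicate 1. The Gata6 morphant change rested on replicate 2, the library with 14.5 RPKM, and was -0.030 without it. Without the other library, replicate 1, which had the highest mdm2, it was -0.74.

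At 6-somites, where libraries of a group lay closer together, the differences were of similar size and were not called in the fit of 16 libraries. foxa2 averaged 12.9 ± 0.25 RPKM in Gata5 morphants and 15.9 ± 0.06 in WT, with a log2 change of -0.27 ± 0.16 (95% interval -0.63 to 0.079; adjusted p = 0.60). foxa3 averaged 17.6 ± 0.75 RPKM in Gata5/6 morphants, 16.3 ± 0.27 in Gata6 morphants and 12.7 ± 0.42 in WT. Its log2 change was 0.44 ± 0.22 in Gata5/6 morphants (95% interval -0.040 to 0.92; adjusted p = 0.34) and 0.34 ± 0.22 in Gata6 morphants (95% interval -0.14 to 0.82; adjusted p = 0.81). No library of these groups overlapped the WT libraries. The share of all tested genes without overlap was not counted, so this is a description only. All these morphant libraries also had more mdm2 than the WT libraries, and its part in the differences was not tested.

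The fit to all libraries gave a gene 1 spread for both stages, and the bud libraries entered the error at 6-somites. When the 8 libraries of 6-somites were fitted alone, the same 3 differences passed the threshold. The SE of the foxa2 change in Gata5 morphants then fell to 0.06 (adjusted p = 0.035), where 3.36% of all genes were called lower. For foxa3 the SE was 0.07, with an adjusted p of 0.037 in Gata6 morphants, where 3.31% of genes were called higher. In Gata5/6 morphants the adjusted p was 0.0067, where 9.13% were called higher. Leaving out a library of the compared groups in turn from this fit kept the foxa3 call in Gata5/6 morphants, with adjusted p of 0.017 to 0.045. Each such omission lost the other calls, with adjusted p of 0.11 to 0.19 for foxa2 in Gata5 morphants and 0.077 to 0.19 for foxa3 in Gata6 morphants.

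The remaining comparisons with WT at 6-somites were near 0 in both fits. The log2 change of foxa2 was -0.020 ± 0.16 in Gata6 morphants (95% interval -0.37 to 0.33; adjusted p = 0.999) and 0.082 ± 0.16 in Gata5/6 morphants (95% interval -0.27 to 0.44; adjusted p = 0.86). The Gata5/6 morphant libraries nevertheless lay just above both WT libraries. The log2 change of foxa3 was -0.010 ± 0.22 in Gata5 morphants (95% interval -0.49 to 0.47; adjusted p = 0.997), with overlapping libraries and a sign that turned without replicate 2 of either group.

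**Figure D2:**
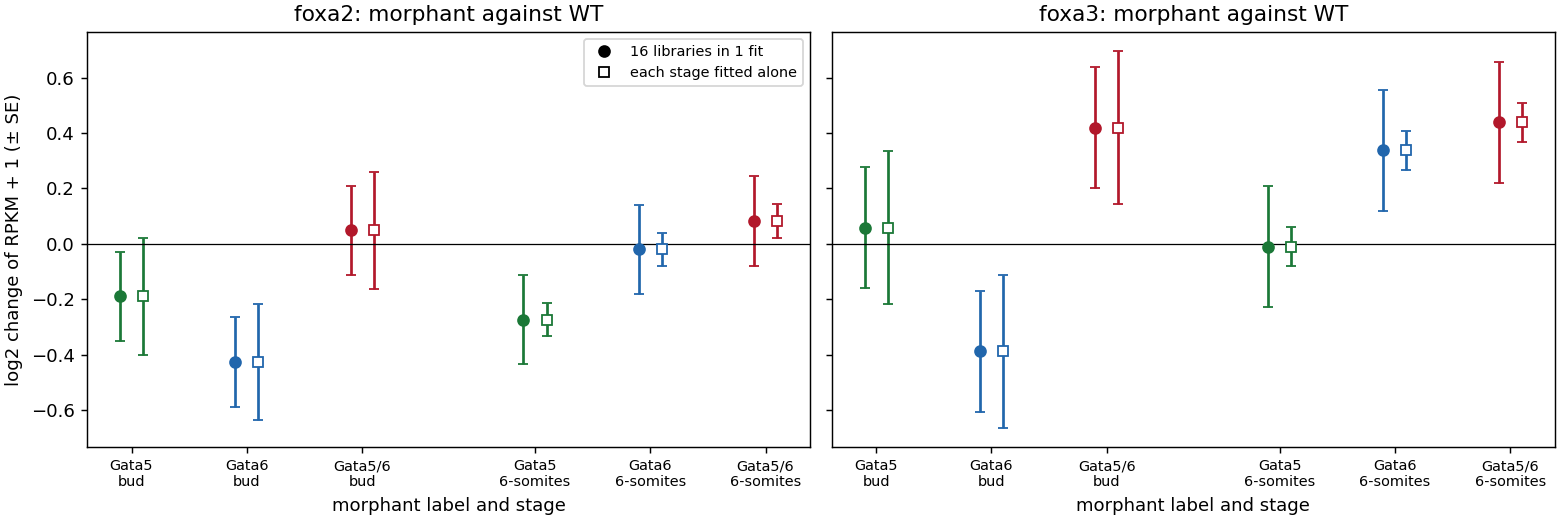
Change of foxa2 (left) and foxa3 (right) in each morphant group against WT, as log2 of RPKM + 1 with bars of 1 SE. Filled circles come from the fit of all 16 libraries and open squares from the fit of each stage alone. The bars of the open squares are longer at bud and shorter at 6-somites, where foxa3 in Gata5/6 morphants was 0.44 ± 0.07 in the latter fit.

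Between morphant groups, the order of foxa2 at bud was Gata5/6 morphants, WT, Gata5 morphants and Gata6 morphants, from highest to lowest mean. At 6-somites it was Gata5/6 morphants, WT, Gata6 morphants and Gata5 morphants. For foxa3 the order at bud was Gata5/6 morphants, Gata5 morphants, WT and Gata6 morphants, and at 6-somites Gata5/6 morphants, Gata6 morphants, WT and Gata5 morphants. No neighbours in these orders, and no other pair of morphant groups, were called different in the fit of 16 libraries. In that fit 0.739% of all genes were called between Gata5/6 and Gata5 morphants and 5.82% between Gata5 and Gata6 morphants at bud. At 6-somites 0.59% were called between Gata5/6 and Gata6 and 3.62% between Gata5 and Gata6 morphants. In the 6-somites libraries fitted alone, the neighbours called different were Gata6 and Gata5 morphants for foxa2 and Gata6 morphants and WT for foxa3.

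The widest separation at bud was that of foxa3 between Gata5/6 and Gata6 morphants, with a log2 difference of 0.81 ± 0.22 (adjusted p = 0.075; 2.61% of genes called). It was 1.16 without Gata6 morphant replicate 1 (adjusted p = 0.0052, or 0.11 with the bud libraries fitted alone) and 0.45 without Gata6 morphant replicate 2 (adjusted p = 0.24). The same comparison gave 0.47 ± 0.16 for foxa2 (adjusted p = 0.14). Between Gata5 and Gata6 morphants at bud, the foxa3 difference was 0.45 ± 0.22 (adjusted p = 0.25). It was 0.80 without Gata6 morphant replicate 1 and 0.088 without Gata6 morphant replicate 2. At 6-somites, Gata5/6 morphants exceeded Gata5 morphants by 0.36 ± 0.16 for foxa2 (adjusted p = 0.27) and by 0.45 ± 0.22 for foxa3 (adjusted p = 0.31), where 3.18% of genes were called. With the 6-somites libraries alone these became adjusted p of 0.0088 and 0.0072, where 20.5% of genes were called. In that fit Gata5 morphants were also lower than Gata6 morphants, with adjusted p of 0.025 for foxa2 and 0.015 for foxa3, and 20.7% of genes called. Leaving out a library of the compared groups in turn lost each of these 4 calls at least once, with adjusted p of up to 0.053 to 0.13.

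On the log2 scale, the Gata5/6 morphant change was also set against the Gata5 and Gata6 morphant changes added together. The departure at bud was 0.66 ± 0.23 for foxa2 (adjusted p = 0.33) and 0.75 ± 0.31 for foxa3 (adjusted p = 0.40), where 0.0271% of genes were called. At 6-somites it was 0.38 ± 0.23 for foxa2 (adjusted p = 0.89) and 0.11 ± 0.31 for foxa3 (adjusted p = 0.999), where 0.0136% were called. None of the 4 departures passed the threshold, nor did any with each stage fitted alone, where 2.2% of genes were called at 6-somites. Single libraries moved the bud values. For foxa2 the departure was 0.95 without WT replicate 1 and 0.38 without WT replicate 2. For foxa3 it was 1.11 without Gata6 morphant replicate 1 and 0.39 without Gata6 morphant replicate 2.

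From bud to 6-somites both genes fell in WT, in Gata5 morphants and in Gata5/6 morphants. The WT mean of foxa2 at 6-somites was 0.526 times that at bud, a log2 change of -0.86 ± 0.16 (adjusted p = 0.0022). For foxa3 the ratio was 0.498, a log2 change of -0.92 ± 0.22 (adjusted p = 0.0082). Both members of the pair were thus called in WT, where 29.9% of all genes were called and 9.56% were called lower. The changes in Gata5 morphants were -0.94 ± 0.16 for foxa2 (adjusted p = 0.0013) and -0.99 ± 0.22 for foxa3 (adjusted p = 0.0060), with 26.9% of genes called and 5.84% called lower. In Gata5/6 morphants they were -0.82 ± 0.16 (adjusted p = 0.0042) and -0.90 ± 0.22 (adjusted p = 0.013), with 21.3% called and 5.82% called lower. In each of these groups both 6-somites libraries lay below both bud libraries. The foxa3 fall missed the threshold in WT without bud replicate 2 (adjusted p = 0.091) or without 6-somites replicate 1 (adjusted p = 0.055). In Gata5/6 morphants it missed it without bud replicate 1 (adjusted p = 0.091), 6-somites replicate 1 (0.053) or 6-somites replicate 2 (0.088).

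Gata6 morphants showed no called fall of either gene, where 18.5% of genes were called. foxa2 at 6-somites was 0.719 times its bud mean, a log2 change of -0.45 ± 0.16 (adjusted p = 0.072), with libraries that did not overlap. foxa3 was 0.838 times its bud mean, a log2 change of -0.20 ± 0.22 (adjusted p = 0.56), with overlapping libraries. The difference from the WT change was tested directly. It was 0.41 ± 0.23 for foxa2 (95% interval -0.093 to 0.90; adjusted p = 0.67) and 0.73 ± 0.31 for foxa3 (95% interval 0.049 to 1.40; adjusted p = 0.60), where 0.0203% of genes were called. Neither passed, so a slower fall in Gata6 morphants was not shown. Without Gata6 morphant bud replicate 1, the foxa3 difference was 1.08 (adjusted p = 0.039) and its change between stages 0.16. Without Gata6 morphant bud replicate 2 the foxa3 difference was 0.37 (adjusted p = 0.72). The foxa2 difference was 0.69 without WT bud replicate 1 and 0.12 without WT bud replicate 2, and was called in neither case. The corresponding differences in Gata5 morphants were -0.084 for foxa2 and -0.068 for foxa3, where 0.0% of genes were called by limma and 456 genes had an unadjusted p under 0.05. In Gata5/6 morphants they were 0.034 and 0.018, where 0.00678% were called. None of these 4 differences passed the threshold, and each turned sign when a single library was left out.

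The level of foxa3 relative to foxa2 within a library does not depend on the depth of that library. This pattern was noticed after the values were seen, and is given with no test. Other pairs of genes were not examined in this way, so how common such a separation is was not counted. The ratio of foxa3 RPKM to foxa2 RPKM was 0.842 and 0.848 in WT at bud and 0.781 and 0.823 in WT at 6-somites. At 6-somites it was 1.03 and 0.919 in Gata5, 1.04 and 1.05 in Gata6 and 1.097 and 0.992 in Gata5/6 morphants, so all 6 morphant libraries lay above both WT libraries. At bud it was 0.947 and 1.08 in Gata5, 1.15 and 0.653 in Gata6 and 1.15 and 1.06 in Gata5/6 morphants, so 5 of 6 did. The exception was replicate 2 of the Gata6 morphants, the library with the lowest foxa3 of the stage.

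**Figure D3:**
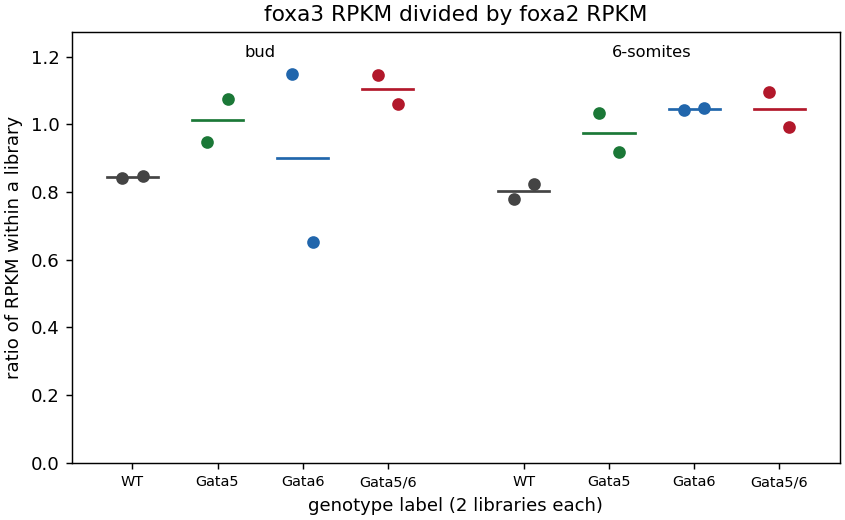
Ratio of foxa3 RPKM to foxa2 RPKM within each of the 16 libraries (points) with the mean of the 2 libraries of a group (lines), at bud and at 6-somites. The 4 WT libraries sit between 0.781 and 0.848, and 11 of the 12 morphant libraries lie above them. This pattern was noticed after the values were seen and was not tested.

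The levels of both genes also moved with the main axis of variation among libraries. The first principal component, computed without the 2 genes over 14749 others, held 50.4% of the variance and separated the stages. Its bud scores ran from -39.5 in WT replicate 2 to -14.6 in Gata6 morphant replicate 1. Its 6-somites scores ran from 14.6 in Gata5/6 morphant replicate 1 to 38.4 in WT replicate 1. At 6-somites the scores were 38.4 and 34.7 in WT, 34.9 and 37.4 in Gata5, 25.8 and 25.5 in Gata6 and 14.6 and 21.8 in Gata5/6 morphants. The groups with higher foxa3 were thus those whose scores were nearer to bud. For foxa2, Gata6 morphants had 15.5 and 15.7 RPKM at 6-somites and were not above WT, with 15.9 and 15.8.

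Over the 8 libraries of a stage, Pearson's r with this score was -0.97 for foxa3 and -0.61 for foxa2 at 6-somites, and -0.56 and -0.92 at bud. Over the 8 libraries the points share group, pool and depth, so these values are a description. How many other genes follow this score as closely was not counted, so this is not shown to be particular to the pair. The part of this axis in the differences from WT was not tested. The pair moved together, with r = 0.72 over 16 libraries after the mean of each stage was subtracted.

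**Figure D4:**
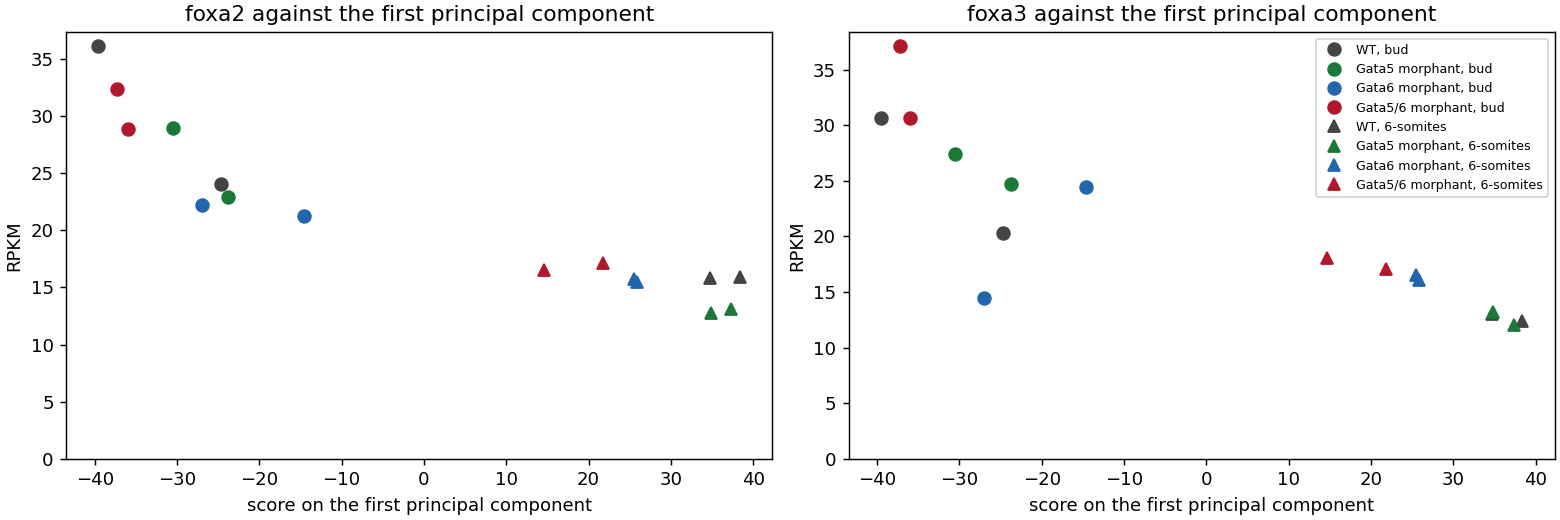
Level of foxa2 (left) and foxa3 (right) in RPKM against the score of each library on the first principal component of 14749 other genes. Bud libraries are circles at negative scores and 6-somites libraries are triangles at positive scores. At 6-somites foxa3 runs from 18.1 RPKM at a score of 14.6 to 12.4 RPKM at 38.4.

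Among 6118 genes with a symbol and a mean of at least 5 RPKM, likeness was measured as Pearson's r over 16 libraries after the mean of each stage was subtracted. The 3 genes nearest to foxa2 were 1 of 2 identifiers named ZIC2 (ENSDARG00000015554; r = 0.86), nfatc2ip (r = 0.85) and PPP2R3C (r = 0.77). ZIC2 encodes a zinc finger factor of the neural plate. The 3 nearest to foxa3 were si:ch211-202h22.8 (r = 0.91), CTNNBIP1 (r = 0.90) and si:ch211-191i18.4 (r = 0.90). CTNNBIP1 encodes an inhibitor of the binding of beta-catenin to TCF factors. Within the 6-somites libraries alone, which were part of that choice, these r values were 0.62 to 0.94.

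Upstream of the pair, the Nodal pathway and endoderm induction list held 13 tested genes. In Gata5 and in Gata5/6 morphants, at either stage, 1 of 13 was called, higher, and it was gata5 itself. Over all genes 0.359% and 1.59% were called at bud and 0.474% and 3.8% at 6-somites. At 6-somites 5 of 13 in Gata5 and 6 of 13 in Gata5/6 morphants had an unadjusted p under 0.05. With the 6-somites libraries fitted alone, 2 were called higher and 3 lower in Gata5 and 4 higher and 3 lower in Gata5/6 morphants. In Gata6 morphants 1 of 13 was called lower at bud and 0 of 13 at 6-somites. There 1.63% and 0.339% of all genes were called. At an unadjusted p under 0.05, 2 of the 13 passed in Gata6 morphants at 6-somites, and the 6-somites libraries fitted alone called 3 higher and 1 lower. In that fit 3.36% of all genes were called lower in Gata5, and 3.31% and 9.13% higher in Gata6 and Gata5/6 morphants. The shares in the other directions are not given here. The gene called at bud was lft2, a feedback inhibitor of Nodal, with a mean of 6.90 ± 1.95 RPKM in Gata6 morphants and 12.5 ± 2.04 in WT, and libraries that did not overlap. Its log2 change was -0.78 ± 0.17 (adjusted p = 0.042), and -0.63 (adjusted p = 0.29) without WT replicate 2. The median log2 change of the list ran from -0.090 to 0.15 over the 6 comparisons, beside -0.027 to 0.019 over all genes. From bud to 6-somites in WT, 2 of 13 rose and 6 fell, where 29.9% of all genes were called. Among those that fell was lft2, whose mean went from 12.5 to 0.264 RPKM.

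Downstream, 14 genes of endoderm and gut derivatives were tested. At bud 1 of 14 was called higher in Gata6 and 1 of 14 higher in Gata5/6 morphants. At 6-somites 1 of 14 was called lower in Gata5/6 morphants. Over all genes 1.63%, 1.59% and 3.8% were called in the same order. In the other 3 comparisons 0 of 14 were called by limma, with 0 or 1 at an unadjusted p under 0.05. The 6-somites libraries fitted alone called 2 of 14 lower in Gata5 morphants and 0 in Gata6 morphants. In Gata5/6 morphants they called 1 higher and 2 lower. In that fit 3.36% of all genes were called lower in Gata5 and 9.13% higher in Gata5/6 morphants. The share called lower in Gata5/6 morphants is not given here. NKX2-3 (ENSDARG00000039095), a homeobox gene of the pharyngeal endoderm, was called in both directions. It averaged 0.942 ± 0.327 RPKM in Gata6 morphants at bud and 0.0951 ± 0.026 in WT, a log2 change of 0.82 ± 0.18 (adjusted p = 0.0498). At 6-somites it averaged 0.894 ± 0.031 RPKM in Gata5/6 morphants and 2.63 ± 1.15 in WT, a log2 change of -0.90 ± 0.18 (adjusted p = 0.019). INSM1 (ENSDARG00000091756), a zinc finger gene of endocrine and neural cells, averaged 1.62 ± 0.28 RPKM in Gata5/6 morphants and 0.284 ± 0.136 in WT at bud (adjusted p = 0.0043). INSM1 is a symbol shared by 2 identifiers, which it does not tell apart. In WT 5 of 14 rose and 4 fell between the stages, where 29.9% of all genes were called. The SoxF relatives sox7 and sox18, of the family of sox17 and known from vessels, were called in 0 of 6 comparisons with WT. At an unadjusted p under 0.05, 1 of these 2 passed in Gata5/6 morphants at bud, and the fit of each stage alone also called 0. sox7 rose between the stages in WT, from 0.416 to 1.51 RPKM (log2 change 0.82 ± 0.12, adjusted p = 0.00052).

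Both foxa genes are also markers of the axial midline, so genes of the other tissues that carry them were counted. Of 9 tested notochord and axial mesoderm genes, 2 were called higher and 1 lower in Gata6 morphants at bud, where 1.63% of all genes were called. There 8 of 9 had an unadjusted p under 0.05, beside 2858 of 14754 genes. The median log2 change of the 9 was -0.42, beside 0.0017 over all genes. noto, needed for the notochord, averaged 15.7 ± 2.13 RPKM in Gata6 morphants and 29.9 ± 5.87 in WT, a log2 change of -0.88 ± 0.16 (adjusted p = 0.024). The collagen genes col8a1a and COL2A1 (ENSDARG00000011407) were higher, with means of 11.9 against 6.48 RPKM and of 8.43 against 4.37 RPKM (adjusted p = 0.025 and 0.048). Another identifier shares the symbol COL2A1 and was not called in this comparison. In WT, 4 of the 9 genes of this list rose and 5 fell between the stages, where 29.9% of all genes were called. Among those that rose were col8a1a, from 6.48 to 61.9 RPKM, and the named COL2A1 identifier, from 4.37 to 24.6 RPKM. The course of noto between the stages is not given here. Of 6 tested floor plate genes, 1 was called higher in Gata6 morphants at bud, beside the same 1.63% of all genes called. The median log2 change of the 6 was -0.20, beside 0.0017 over all genes, and 4 of 6 had an unadjusted p under 0.05. The called gene was NTN1 (ENSDARG00000022531), a guidance cue for axons, at 1.20 ± 0.07 against 0.285 ± 0.029 RPKM (adjusted p = 0.010). NTN1 thus went the other way from the median of its list. Between the stages in WT it rose from 0.285 to 5.10 RPKM. The part of stage in the changes of these called genes was not tested. These changes in Gata6 morphants accompanied a lower bud mean of foxa2 in that group, which was not called, and their part in it was not tested. Without WT bud replicate 2 the log2 change shrank to -0.14 for foxa2 and to -0.69 for noto. It was 0.61 for col8a1a and 0.55 for COL2A1, against 0.80 and 0.84 with all libraries. For NTN1 it hardly moved, at 0.75 against 0.77. Without WT bud replicate 1 the changes were larger instead, at -0.71 for foxa2 and -1.08 for noto. They were then 1.004 for col8a1a, 1.14 for COL2A1 and 0.80 for NTN1.

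At 6-somites, SHH (ENSDARG00000038867), the midline signal and a member of both lists, had 9.05 and 7.89 RPKM in Gata5/6 morphants and 4.85 and 5.89 RPKM in WT. Its log2 change was 0.57 ± 0.12 (adjusted p = 0.028). It was the 1 call of either list in that comparison, where 3.8% of all genes were called. Another identifier shares the symbol SHH and was not called in that comparison. In the 4 comparisons other than this and Gata6 morphants at bud, 0 genes of either list were called by limma, with 0 to 3 per list at an unadjusted p under 0.05. The 6-somites libraries fitted alone called 1 notochord gene lower in Gata5 and 2 in Gata6 morphants. In that fit 3.36% of all genes were called lower in Gata5 morphants, and the share called lower in Gata6 morphants is not given here. Of 6 hatching gland genes, 1 was called higher in Gata5/6 morphants at 6-somites, where 3.8% of all genes were called. This was frzb, which encodes a secreted Wnt antagonist, at 3.59 ± 0.31 against 1.25 ± 0.35 RPKM (log2 change 1.04 ± 0.15, adjusted p = 0.0035). Elsewhere 0 were called, with 1 to 4 at an unadjusted p under 0.05. The 4 were in Gata6 morphants at bud, where the median log2 change of the list was -0.36, beside 0.0017 over all genes. The 6-somites libraries fitted alone called 1 higher in Gata6 and 1 higher in Gata5/6 morphants. In that fit 3.31% and 9.13% of all genes were called higher. SHH and frzb fell between the stages in WT, from 12.9 to 5.37 RPKM and from 15.4 to 1.25 RPKM. Both were named because they were called higher in Gata5/6 morphants, so a level nearer to bud there follows from that choice. The part of stage in these differences was not tested. Of 3 tested genes of dorsal forerunner cells and Kupffer vesicle, a structure that forms under the control of sox32, 0 were called in the 6 comparisons with WT. At an unadjusted p under 0.05, 1 of these 3 passed in Gata6 morphants at bud. The 6-somites libraries fitted alone called 1 lower in Gata5 morphants, where 3.36% of all genes were called lower.

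The yolk syncytial layer, the extraembryonic layer next to the endoderm, held the most called genes of Gata5/6 morphants among these lists. Of 7 tested genes, 2 were called higher at bud and 3 at 6-somites, and 1 was called higher in Gata5 morphants at 6-somites. The share of all genes called in either direction was 1.59%, 3.8% and 0.474% in the same order. In the other 3 comparisons 0 were called by limma, with 0 to 4 at an unadjusted p under 0.05. The 6-somites libraries fitted alone called 2 higher in Gata6 morphants, where 3.31% of all genes were called higher. slc26a1, an anion transporter gene, averaged 88.4 ± 21.2 RPKM in Gata5/6 morphants and 28.4 ± 1.39 in WT at bud (log2 change 1.58 ± 0.21, adjusted p = 0.0036). At 6-somites it averaged 47.5 ± 0.52 against 8.43 ± 2.28 RPKM (log2 change 2.38 ± 0.21, adjusted p = 0.00035), and 22.9 ± 4.34 RPKM in Gata5 morphants (adjusted p = 0.023). apoc2, which encodes an apolipoprotein, averaged 66.9 ± 17.5 against 36.1 ± 0.75 RPKM at bud (adjusted p = 0.046) and 91.4 ± 0.17 against 40.6 ± 1.80 at 6-somites (adjusted p = 0.0061). mxtx1, a homeobox gene of this layer, averaged 4.32 ± 0.03 against 1.96 ± 0.44 RPKM at 6-somites (adjusted p = 0.014). The median log2 change of the list at 6-somites was 0.44 in Gata5, 0.55 in Gata6 and 0.41 in Gata5/6 morphants, beside -0.025 to 0.019 over all genes. At bud it was 0.032, 0.13 and 0.14 in the same order.

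Over the 8 lists there were 20 calls against WT from 13 genes, and 6 were kept without each library of the compared groups in turn. These were the 4 calls of gata5 and those of slc26a1 in Gata5/6 morphants at both stages. The other 14 lost the threshold at least once. With the bud libraries fitted alone, the bud call of gata5 in Gata5/6 morphants was kept (adjusted p = 0.035) and every other bud call was lost. The adjusted p was then 0.22 for gata5 in Gata5 morphants, 0.075 for slc26a1, 0.10 for INSM1, 0.44 for apoc2 and 0.32 to 0.37 for the calls in Gata6 morphants. All calls in Gata6 morphants at bud lost it without WT bud replicate 2, with adjusted p of 0.099 to 0.31. The lists were counted and not tested as sets, and their genes are not independent of each other.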

How the data were processed

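RPKM values per Ensembl gene were deposited by the authors, per the file headers, from single 36-base reads (Illumina Genome Analyzer IIx) on build Zv9, per the submitters' processing notes and the labels. No source used here gives the aligner, the annotation or the counting tool. Names came from an identifier table that matched 19258 of 27257 identifiers. The deposited files list 26291 genes at bud and 26496 at 6-somites, none at 0. A gene was tested where 2 or more of the 16 libraries reached 1 RPKM, which left 14754 at bud, 14755 at 6-somites and 14751 across stages. log2(RPKM + 1) was fitted with limma 3.58.1 (trend option, R 4.3.3) as a mean for each of 8 groups with 8 residual degrees of freedom. P-values are two-sided and adjusted by Benjamini-Hochberg over all tested genes. A log2 change on this scale understates the ratio of RPKM at low levels.

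Whole reads recovered from steps between RPKM values (99.73% of identifiers, of which 96.56% lay within 0.01 reads) gave the depths and a limma-voom alternative. Both the fit and the recovery were tested on simulated data. The members and gene lists were chosen with earlier results of these data known. The text names the members, gata5, called list genes (at most 3 per list and comparison) and the 3 genes most like each member. Labels do not say whether the 2 libraries of a group came from separate clutches, so p-values measure the spread between these libraries. Promoter motifs were not searched here. Where libraries of groups are said to lie apart or not to overlap, the share of all genes that did so was not counted.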

Additional observations from a re-analysis of the deposited data

How the results depend on the processing

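The changes of foxa2 and foxa3 against WT and between stages were recomputed with each stage fitted alone, a pseudocount of 0.1 RPKM, a filter at 5 RPKM, no filter, median-of-ratios scaling, limma-voom, a replicate block and each library left out. After the data were seen, 2 more were added. These were leaving out both bud libraries with high mdm2, and leaving out each library with each stage fitted alone. Each stage alone called foxa2 in Gata5 (-0.27) and foxa3 in Gata6 (0.34) and Gata5/6 (0.44) morphants at 6-somites. Median-of-ratios scaling called the fall of foxa2 in Gata6 morphants (-0.60), and moved the median stage change of all genes by -0.19 to -0.092. Without both libraries with high mdm2, foxa2 in Gata5/6 morphants at bud was -0.032, foxa3 in Gata6 morphants at bud -0.74, and its stage change there 0.16. The cause of these shifts was not tested.

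With 1 library left out, foxa2 at bud ran from -0.47 to 0.095 in Gata5, -0.71 to -0.14 in Gata6 and -0.24 to 0.33 in Gata5/6 morphants. foxa3 ran from -0.23 to 0.34 in Gata5, -0.74 to -0.030 in Gata6 and 0.13 to 0.71 in Gata5/6 morphants at bud. At 6-somites foxa3 ran from -0.070 to 0.050 in Gata5 and 0.40 to 0.48 in Gata5/6 morphants. Its stage change ran from -1.21 to -0.64 in WT, -0.55 to 0.16 in Gata6 and -1.04 to -0.77 in Gata5/6 morphants. The differences from the WT stage change ran from -0.37 to 0.20 (Gata5), 0.12 to 0.69 (Gata6) and -0.25 to 0.32 (Gata5/6) for foxa2. For foxa3 they ran from -0.35 to 0.22, 0.37 to 1.08 and -0.27 to 0.31.

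Replicate numbers are shared between groups, but no label says what they mark. Deviations of libraries with the same number correlated at 0.19 to 0.56 over 14751 genes, with 2 numbers per group. With a replicate block no call of either gene changed, and the fall in WT had adjusted p of 0.0097 for foxa2 and 0.019 for foxa3. Counts of called genes over the whole series moved widely. At bud the alternatives gave 1 to 208 for Gata5 (53 reported), 0 to 2636 for Gata6 (241) and 6 to 362 for Gata5/6 morphants (235). At 6-somites they gave 37 to 1249 (70), 28 to 927 (50) and 245 to 2975 (560). Between stages they gave 2364 to 5731 in WT (4404), 1860 to 5222 in Gata5 (3966), 1578 to 5514 in Gata6 (2734) and 1642 to 3539 in Gata5/6 morphants (3143). In the fit of 16 libraries the 95% intervals against WT reached 0.35 to either side for foxa2 and 0.48 for foxa3.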
